A study of Arabidopsis thaliana with 12 samples.

Results

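The 38 genes described here encode glutathione transferases of Arabidopsis thaliana, 28 of the tau class (GSTU) and 10 of the phi class (GSTF). They were taken from the 28775 genes of the count tables by locus code, and the set was chosen with earlier results of these data known. All 38 codes were found in the TAIR10.1 annotation, which names each product a glutathione transferase and lists GSTU17 under the symbol ERD9.

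Glutathione transferases join the tripeptide glutathione to reactive or foreign molecules such as herbicides, oxidised lipids and intermediates of defence compounds, and several also act as peroxidases on organic hydroperoxides. The conjugates are carried into the vacuole by ABCC transporters and taken apart there and in the cytosol. The tau and phi classes are the large plant classes, and many of their genes lie in tandem arrays and are known for rapid induction by chemicals, oxidative stress and salicylic acid. Promoters of several members hold as-1 or ocs elements, which are bound by TGA factors, a group of bZIP proteins.

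RNA came from Col-0 seedlings aged 3 weeks, grown in 12 h of light and 12 h of darkness and harvested after the night had been extended by 6 h. The SnRK1-labelled line carries a knockout of the kinase subunit snrk1-alpha-1 and an inducible knockdown of snrk1-alpha-2; at an age of 14 d it and its own wild type were put on medium with the additive labelled Est and stayed there 6 d. The S1-labelled line is labelled as a knockout of bZIP1 and bZIP53 and has inducible knockdowns of bZIP2, bZIP11 and bZIP44 on top; with its own wild type it spent 5 further d on MS medium and then 1 d on Est. Each of these 4 groups has 3 libraries, but no label states whether these are independent cultures, and the p-values below therefore reflect library-to-library spread that may be technical. The series addresses which starvation responses depend on SnRK1, an energy-sensing kinase, and on the S1 bZIP factors. Every group had the extended night and Est, so neither is compared with its absence.

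Library totals were 3760168 to 9403687 counts. Levels are given below as CPM, counts per 1000000 of the library size scaled by TMM (trimmed mean of M values), in the order of libraries 1 to 3. The lines are named by their labels because not every target followed them: 61.6, 65.6 and 60.2 CPM of KIN10 (snrk1-alpha-1) were still counted in the SnRK1-labelled line, against 86.2, 99.6 and 78.5 in its wild type, and bZIP2 was at 58.8, 72.2 and 68.9 CPM in the S1-labelled line, against 62.5, 74.4 and 61.4 in its wild type. The other knockdown targets of the S1-labelled line were not called lower either, bZIP11 averaging 1.18 ± 0.470 CPM in the line and 1.42 ± 0.332 CPM in the wild type and bZIP44 1.93 ± 0.665 CPM in the line and 1.00 ± 0.474 CPM in the wild type. The knockout targets were lower but still counted, bZIP1 at 21.6 ± 4.52 CPM in the line and 132 ± 12.4 CPM in the wild type and bZIP53 at 16.5 ± 1.37 CPM in the line and 78.9 ± 9.35 CPM in the wild type. KIN11 (snrk1-alpha-2) was lower in both lines, at 28.3, 29 and 43.4 CPM in the SnRK1-labelled line, against 98.4, 114 and 85.4 in its wild type, and at 40.3, 44 and 46.1 CPM in the S1-labelled line, against 76.8, 84.2 and 65.4 in its wild type. The summed CPM of 4 leaf markers was 5920 to 12842 in the SnRK1-labelled line and 47277 to 62531 in its wild type, and that of 8 root markers was 0.993 to 1.76 in the line and 9.52 to 14.0 in the wild type. The root hair regulator RSL4 had no count in either group, and the root hair expansin EXPA7 had none in that wild type. All 4 leaf markers were lower in the line, and the part of such shifts in the results below was not tested. In whole seedlings, fewer cells of a type and less RNA per cell cannot be told apart.

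The tau and phi genes together took a larger part of the transcripts in the SnRK1-labelled line than in its wild type. Their summed level was 9132, 9288 and 6639 CPM in the line, against 1283, 1291 and 1280 CPM in the wild type, a 6.50-fold ratio of means. All 3 libraries of the line lay far above all 3 of the wild type. The 10 phi genes averaged 5880 ± 1040 CPM in the line and 793 ± 36.1 CPM in the wild type (SD, n = 3 each), a 7.41-fold ratio. The 28 tau genes averaged 2474 ± 480 CPM in the line and 491 ± 41.8 CPM in the wild type, a 5.03-fold ratio. As a share of all counts, with no scaling, the 38 genes held 0.870% to 1.28% in the line and 0.106% to 0.118% in the wild type. In the S1-labelled line they summed to 2246, 2073 and 1852 CPM, against 1515, 1691 and 1977 CPM in its wild type, and these 2 ranges overlapped.

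**Figure D1:**
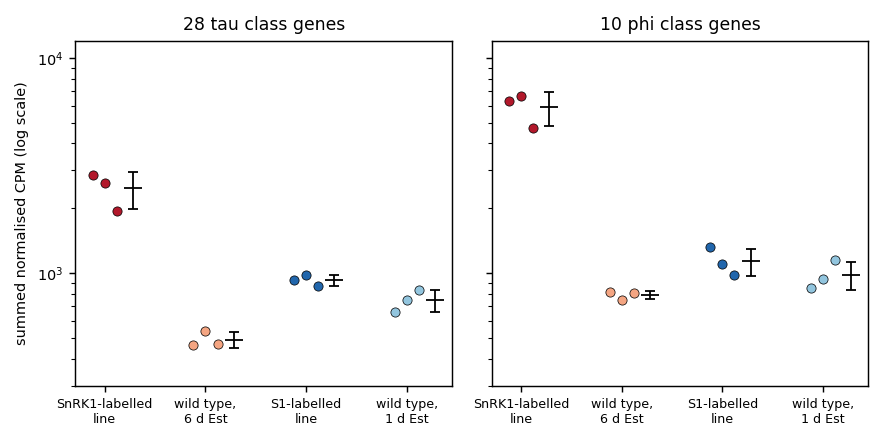
Summed normalised CPM (log axis) of the 28 tau genes (left) and the 10 phi genes (right) in each library of the 4 groups; points are libraries, and the black bar beside them is the mean with its SD (n = 3). Both sums are highest in the SnRK1-labelled line, where the phi genes average 5880 CPM, against 793 CPM in its wild type.

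The first comparison asks which members differ between the SnRK1-labelled line and its wild type. The count filter (at least 10 counts at the median library size in at least 3 libraries) left 31 of the 38 members for testing. Of these 31, 26 were higher in the SnRK1-labelled line, 3 were lower (GSTU16, GSTU18 and GSTF14) and 2 were not called (GSTU5 and GSTU26). A call is an adjusted p under 0.05 in edgeR's quasi-likelihood test with Benjamini-Hochberg adjustment over all 18388 genes tested. This line differs from its wild type over much of the genome, and 35.4% of all genes tested were called higher, 33% lower and 68.4% either way. The members' median log2 fold change was 2.69, beside 0.04 over all genes tested. In 29 of the 31 members the 3 libraries of the line did not overlap those of the wild type, as in 70.9% of all genes tested. By class, 19 of 23 tau genes tested were higher and 2 lower (median log2 fold change 3.35), and 7 of 8 phi genes were higher and 1 lower (median 2.61).

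Passing the filter itself depended on the line for some members. The filter's level was 1.5 CPM, here on library totals without TMM scaling. GSTU3, GSTU6, GSTU11 and GSTU12 had fewer than 3 of the other 9 libraries above it and so were tested only through their counts in the SnRK1-labelled line. Without these 4, 22 of 27 members were higher and 3 lower, with a median log2 fold change of 2.60. GSTF14 was the reverse case, below that level in all 3 libraries of the line.

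**Figure D2:**
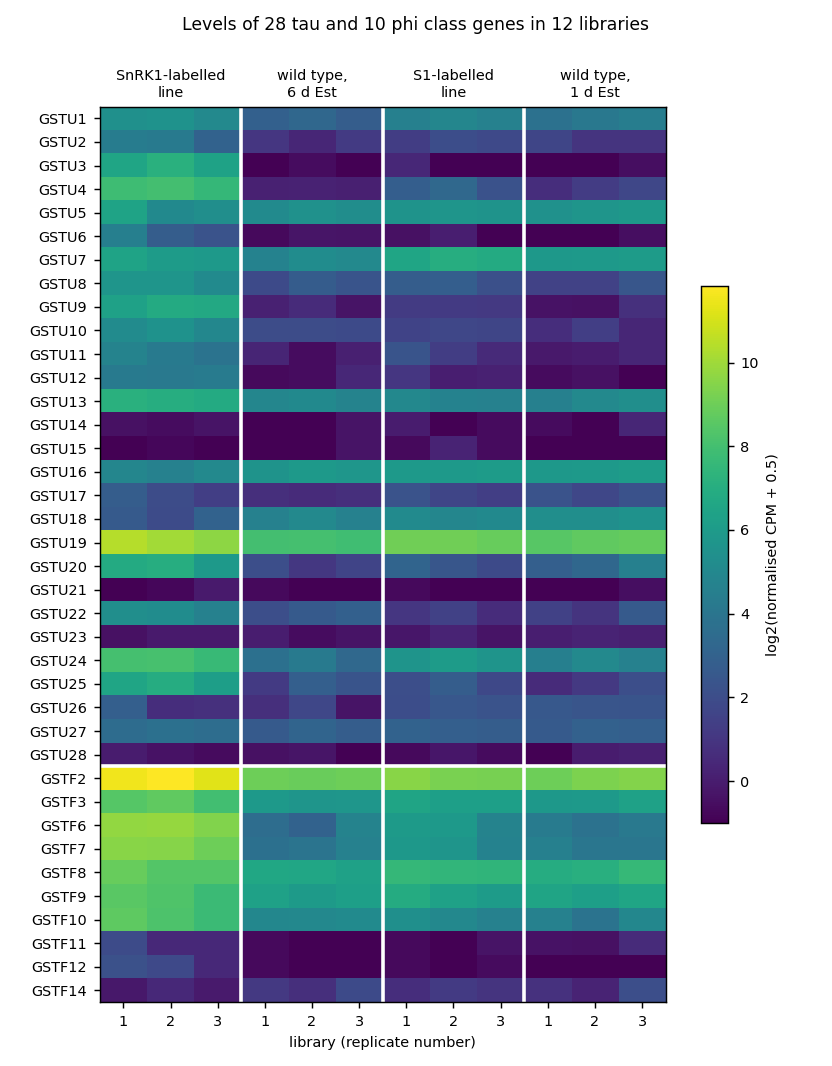
Level of each of the 38 members (down the page, tau genes above the white line and phi genes below it) in each of the 12 libraries (across, 3 for each group), as log2 of normalised CPM + 0.5 on the colour scale. The 3 libraries of the SnRK1-labelled line are brighter for most members, and GSTF2 and GSTU19 are the brightest genes in every group.

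GSTU3 (AT2G29470) and GSTU4 (AT2G29460), neighbours in an array of 7 tau genes on chromosome 2, had the largest fold changes among the members called. GSTU3 was at 91.8, 140.5 and 82.6 CPM in the SnRK1-labelled line, against 0, 0.165 and 0 CPM in its wild type, where its 3 libraries held 1 count in all. Its log2 fold change was 10.43 ± 0.52 (SE from the F statistic, as for all fold changes below, edgeR adjusted p = 4.64e-11). Such an SE can understate counting error where a group has few counts, as in this wild type. With 2838 counts in the line and 1 in the wild type, the ratio of levels was 1911, with an exact 95% interval for counting error of 343 to 75514, so mainly its lower end is informative. Without library 1 of the wild type the log2 fold change was 9.73. Without library 2, which held the only wild type count, it was 12.46, a value with no counted wild type level behind it. GSTU4 was at 230.1, 251 and 184 CPM in the line and 0.643, 0.658 and 0.577 CPM in the wild type, a log2 fold change of 8.41 ± 0.31 (edgeR adjusted p = 1.66e-12). For both genes the libraries of the line lay within a factor that was small beside the gap to the wild type.

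The bases before these 2 genes are shown because they had the largest responses, together with those of GSTF14 (AT1G49860) and GSTU16 (AT1G59700), which were lower in the line. Each window holds the 250 bases before the annotated gene start, read 5′ to 3′ on the gene's strand from the RefSeq TAIR10.1 genome, and stops before the transcript: chr2:12629641-12629890 (minus strand) for GSTU3, chr2:12627892-12628141 (minus strand) for GSTU4, chr1:18458276-18458525 (plus strand) for GSTF14 and chr1:21936028-21936277 (plus strand) for GSTU16. Capitals mark matches, on either strand, to TGACG (the core of TGA factor sites), TTGAC (the core of the W-box of WRKY factors) and CACGTG (the G-box). The sequence TTGACG holds a match to both of the first motifs.
GSTU3: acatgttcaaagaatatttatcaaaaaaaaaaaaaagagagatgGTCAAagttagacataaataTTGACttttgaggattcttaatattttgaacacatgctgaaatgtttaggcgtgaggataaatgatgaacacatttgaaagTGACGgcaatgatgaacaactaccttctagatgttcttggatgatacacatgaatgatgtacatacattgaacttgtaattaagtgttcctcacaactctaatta
GSTU4: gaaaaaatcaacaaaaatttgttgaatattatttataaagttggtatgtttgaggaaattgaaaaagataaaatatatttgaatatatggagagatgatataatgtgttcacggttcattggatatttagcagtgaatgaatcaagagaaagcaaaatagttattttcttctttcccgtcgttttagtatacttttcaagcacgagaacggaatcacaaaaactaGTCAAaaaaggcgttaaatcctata
GSTF14: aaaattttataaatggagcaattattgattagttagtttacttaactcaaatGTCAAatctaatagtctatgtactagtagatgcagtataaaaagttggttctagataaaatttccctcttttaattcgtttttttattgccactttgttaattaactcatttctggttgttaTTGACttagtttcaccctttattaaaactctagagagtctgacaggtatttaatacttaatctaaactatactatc
GSTU16: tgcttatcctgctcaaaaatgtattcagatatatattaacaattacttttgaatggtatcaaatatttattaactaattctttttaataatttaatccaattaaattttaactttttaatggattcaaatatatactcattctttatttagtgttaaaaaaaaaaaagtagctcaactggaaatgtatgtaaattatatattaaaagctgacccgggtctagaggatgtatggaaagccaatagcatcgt

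The GSTU3 window holds 1 TGACG match, 105 to 101 bases before the gene start, and 2 TTGAC matches, whereas the GSTU4 window holds 1 TTGAC match and no TGACG. The GSTF14 window holds 2 TTGAC matches, and the GSTU16 window holds none of the 3 motifs. GSTU18 (AT1G10360), which had the lowest fold change, is not shown, because its window lies inside the last exon of its neighbour GSTU17 (AT1G10370). Over windows of the same length, TGACG was present in 14 of 38 members (36.8%), against 18.6% of 26709 genes with a window. TTGAC was present in 23 of 38 members (60.5%), against 45.0% of all windows, and CACGTG in 3 members (7.89%), against 6.58%. Among the 26 members higher in the line, 13 windows held TGACG, 17 held TTGAC and 2 held CACGTG. These matches describe letters in a window and not binding.

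GSTU9 (AT5G62480), GSTU12 (AT1G69920), GSTU6 (AT2G29440) and GSTU11 (AT1G69930) were close to the detection limit in the wild type and clearly counted in the SnRK1-labelled line. GSTU9 was at 81.6, 113 and 107 CPM in the line, against 0.643, 0.988 and 0.289 CPM in the wild type (log2 fold change 7.15 ± 0.26). GSTU12 was at 19.2, 18 and 19.8 CPM in the line, against 0.129, 0.165 and 0.866 CPM in the wild type (5.93 ± 0.40). The 3 libraries of the line lay close together for GSTU12, while the wild type gave only 5 counts in all, so its ratio of 65.2 has a 95% counting interval of 27.7 to 202. GSTU11, the neighbour of GSTU12, was at 26.5, 19 and 14.1 CPM in the line and 0.772, 0.165 and 0.577 CPM in the wild type (5.22 ± 0.49). GSTU6 was at 22.9, 6.32 and 4.36 CPM in the line and 0.129, 0.329 and 0.289 CPM in the wild type (5.48 ± 0.82). Library 1 of the line stood above the other two for GSTU6, and without it the log2 fold change was 4.44 (edgeR adjusted p = 3.21e-06). Exons of AT2G29430, on the opposite strand, cover 29.9% of GSTU6, and that gene averaged at most 0.224 CPM in any group. Leaving out 1 wild type library moved the log2 fold change to 6.86 for GSTU12 (without library 3) and 5.89 for GSTU11 (without library 1). In GSTU9, GSTU12 and GSTU11 the edgeR adjusted p was at most 7.87e-08.

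GSTF6 (AT1G02930) and GSTF7 (AT1G02920) moved most among the phi genes. GSTF6, which conjugates glutathione in the synthesis of the phytoalexin camalexin, was at 863, 906 and 683 CPM in the SnRK1-labelled line, against 11.7, 7.74 and 26 CPM in its wild type (log2 fold change 5.85 ± 0.38, edgeR adjusted p = 9.70e-10). GSTF7 was at 743, 717 and 516 CPM in the line, against 12.9, 14.6 and 24.8 CPM in the wild type (5.29 ± 0.31, edgeR adjusted p = 2.67e-10). In both genes library 3 of the wild type was the highest of its group and still far below every library of the line. The 2 genes are adjacent on chromosome 1, and their proteins share 93.8% of aligned residues (195 of 208), the highest identity among the members. In their transcripts, 9.41% of the 50-base stretches of GSTF6 and 9.19% of those of GSTF7 occur in another gene, and a read from such a stretch could not be assigned to 1 gene. The same holds for 2.46% of the stretches of GSTF2 (AT4G02520) and 3.51% of those of GSTF3 (AT2G02930).

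Per length, the order of the most abundant members differed between the groups. GSTF2, which binds camalexin and other indole compounds, and GSTU19 (AT1G78380), a tau enzyme induced by herbicide safeners, held the first 2 places in CPM per kb of transcript in all 4 groups. GSTF2 averaged 2087 CPM per kb in the SnRK1-labelled line and 344 in its wild type, and GSTU19 averaged 957 in the line and 226 in the wild type. GSTF6 ranked 3 of the 38 in the line, with 689 CPM per kb, but 13 in its wild type, with 12.8. GSTF7 ranked 4 in the line, with 543 CPM per kb, but 12 in the wild type, with 14.4. In the S1-labelled line GSTF6 ranked 9 and GSTF7 ranked 11, against 15 and 14 in its wild type. The places of genes with near-equal levels, such as GSTF6 and GSTF7 in any wild type, do not differ beyond the spread of the libraries.

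GSTF2 on its own supplied 33.7% to 39.4% of the members' CPM in the SnRK1-labelled line and 37.7% to 40.5% in its wild type. Its levels were 3073, 3659 and 2478 CPM in the line, against 519, 487 and 514 CPM in the wild type (log2 fold change 2.60 ± 0.19, edgeR adjusted p = 6.03e-09). Exons of TOC159, on the opposite strand, cover 60.5% of GSTF2, and the sources used here do not give the strand used in counting. TOC159, a chloroplast import receptor, averaged 217 ± 47.4 CPM in the line and 616 ± 53.4 CPM in the wild type, so it moved the other way (log2 fold change -1.50). GSTF3, whose protein shares 92.5% of residues with GSTF2 but which no other gene overlaps, averaged 336 ± 82.6 CPM in the line and 54.9 ± 3.95 CPM in the wild type, and its log2 fold change of 2.61 was close to that of GSTF2.

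GSTU19 was at 1350.4, 1070.02 and 795 CPM in the SnRK1-labelled line, against 253, 265 and 242 CPM in its wild type (log2 fold change 2.08 ± 0.18). GSTU24 (AT1G17170), an enzyme that conjugates the explosive TNT and is induced by it, was at 266, 275 and 199 CPM in the line, against 13, 18.9 and 9.52 CPM in the wild type (4.12 ± 0.21). GSTU13 (AT1G27130), which acts in the indole glucosinolate defence pathway, was at 143, 129 and 113 CPM in the line, against 29.3, 33.7 and 26.5 CPM in the wild type (2.10 ± 0.17). In each of these 3 genes every library of the line exceeded every library of the wild type, and the edgeR adjusted p was at most 3.04e-08. GSTU20 (AT1G78370), known as an interactor of the jasmonate-conjugating enzyme JAR1, was at 113, 126 and 58.6 CPM in the line and 3.73, 1.65 and 2.60 CPM in the wild type (log2 fold change 5.17 ± 0.45). GSTU1 (AT2G29490) was at 42.4, 46.9 and 32.6 CPM in the line and 7.21, 9.38 and 6.35 CPM in the wild type (2.39 ± 0.19). The libraries of the line again lay above those of the wild type in both.

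Other members called higher are given by group means. GSTU25 (AT1G17180), the other TNT-conjugating enzyme, averaged 96.1 ± 24.5 CPM in the SnRK1-labelled line and 4.44 ± 2.56 CPM in its wild type. GSTU2 (AT2G29480) averaged 15.8 ± 6.95 CPM in the line and 1.37 ± 0.480 CPM in the wild type, and 70.3% of it is covered by exons of AT2G29485, a locus on the opposite strand with no values used here. GSTU10 (AT1G74590) averaged 37.7 ± 8.28 CPM in the line and 3.37 ± 0.168 CPM in the wild type. GSTU8 (AT3G09270) averaged 46.4 ± 9.72 CPM in the line and 4.64 ± 1.44 CPM in the wild type. In each of these 4 genes the groups did not overlap. GSTU22 (AT1G78340) averaged 34 ± 8.40 CPM in the line and 5.57 ± 1.75 CPM in the wild type. GSTF10 (AT2G30870), also called ERD13 for its early response to dehydration, averaged 307 ± 91.1 CPM in the line and 32.3 ± 2.31 CPM in the wild type. The log2 fold changes of these 6 genes ran from 2.69 for GSTU22 to 4.50 for GSTU25, which was 5.11 without library 2 of the wild type.

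The smallest increases among the members called higher were in GSTU27 (AT3G43800), GSTU7 (AT2G29420), GSTU17, GSTF9 (AT2G30860) and GSTF8 (AT2G47730). GSTU27 was at 11, 12.8 and 11.7 CPM in the SnRK1-labelled line, against 5.66, 8.39 and 6.35 CPM in its wild type (log2 fold change 0.81 ± 0.19, edgeR adjusted p = 0.000983). GSTU7 was at 85.8, 66.1 and 59.8 CPM in the line, against 25.7, 37.4 and 32.6 CPM in the wild type (1.15 ± 0.16). On the opposite strand, exons of MTPB1 and of AT2G08340, a locus with no values used here, together cover 68.9% of GSTU7. MTPB1 averaged 3.12 CPM in the line and 0.498 CPM in the wild type, and reads of these loci cannot be told apart without the strand. GSTF8, a standard marker of oxidative and salicylic acid responses, was at 468, 344 and 342 CPM in the line, against 100.4, 96.1 and 80.8 CPM in the wild type (2.05 ± 0.17). GSTF9 was at 369, 317 and 215 CPM in the line, against 81.3, 62.4 and 74.2 CPM in the wild type (2.05 ± 0.21). The libraries of both groups stayed apart in all 4 of these genes.

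GSTU17 and GSTU18 are adjacent tau genes on chromosome 1 whose transcripts overlap by 71 bases, and they were called in opposite directions. GSTU17, also known as ERD9 and as a regulator of light and drought responses, was at 6.39, 3.52 and 2.10 CPM in the SnRK1-labelled line, against 1.16, 0.988 and 1.15 CPM in its wild type (log2 fold change 1.86 ± 0.44, edgeR adjusted p = 0.00128). GSTU18 was at 5.77, 3.34 and 7.66 CPM in the line, against 24.3, 32.8 and 24.5 CPM in the wild type (-2.35 ± 0.21, edgeR adjusted p = 5.53e-08). Every library of the line was above the wild type for GSTU17 and below it for GSTU18. The 2 proteins share 74.9% of aligned residues.

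The other 2 members that were lower are weaker cases. GSTU16 was at 29.5, 24.5 and 32.5 CPM in the SnRK1-labelled line, against 48, 58.3 and 53.4 CPM in its wild type (log2 fold change -0.89 ± 0.13, edgeR adjusted p = 9.70e-06). GSTF14 was at 0.376, 0.903 and 0.451 CPM in the line, against 1.67, 1.15 and 3.17 CPM in the wild type (-1.55 ± 0.58, edgeR adjusted p = 0.0261). Neither gene's groups overlapped, but GSTF14 had no more than 19 counts in any library. Scaling by library totals alone shifted the median of all genes to a log2 fold change of 0.64. Under it GSTU16 was at -0.30 (edgeR adjusted p = 0.0480), and GSTF14, at -0.96, was no longer called (edgeR adjusted p = 0.162). GSTF14 also lost its call without library 3 of the wild type (edgeR adjusted p = 0.105) and without library 1 (0.0753) or library 3 (0.0503) of the line.

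GSTU5 (AT2G29450) and GSTU26 (AT1G17190) were the 2 members tested and not called, and library 1 of the SnRK1-labelled line stood apart in both. GSTU5 was at 87.9, 33.9 and 40.4 CPM in the line, against 35.3, 44.4 and 39.2 CPM in its wild type (log2 fold change 0.45 ± 0.25, edgeR adjusted p = 0.125). GSTU26 was at 7.02, 1.08 and 1.20 CPM in the line, against 1.16, 2.80 and 0.289 CPM in the wild type (0.97 ± 0.65, edgeR adjusted p = 0.195). Without that library the sign turned, to -0.10 for GSTU5 and -0.45 for GSTU26. Other settings called both genes higher. GSTU5 was called by library totals (log2 fold change 1.02, edgeR adjusted p = 0.000621), with TMM on the 5000 most expressed genes (0.79, edgeR adjusted p = 0.00755), and without library 2 (0.68, edgeR adjusted p = 0.0131) or library 3 (0.58, edgeR adjusted p = 0.0479) of the line. GSTU26 was called by library totals (1.56, edgeR adjusted p = 0.0285) and without library 2 of the line (1.43, edgeR adjusted p = 0.0417), and its value was 1.78 without library 2 of the wild type (edgeR adjusted p = 0.0689).

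The remaining 7 members had too few counts to be tested. GSTU14 (AT1G27140), GSTU15 (AT1G59670), GSTU21 (AT1G78360), GSTU23 (AT1G78320) and GSTU28 (AT1G53680) had 7 to 35 counts over all 12 libraries and at most 5 in any library. No difference between groups was detectable for these 5 at this depth. GSTF11 (AT3G03190), an enzyme of aliphatic glucosinolate synthesis, had 26, 10 and 6 counts in the SnRK1-labelled line and 1, 0 and 0 in its wild type. GSTF12 (AT5G17220), the TRANSPARENT TESTA 19 protein of anthocyanin transport, had 32, 34 and 6 counts in the line and 1, 0 and 0 in the wild type. With 1 count of each gene in that wild type, the ratio of levels was 28.3 for GSTF11 (95% counting interval 4.81 to 1143) and 48.5 for GSTF12 (8.43 to 1941). The wild type with 1 d of Est had 2, 1 and 5 counts of GSTF11 (0.281, 0.238 and 0.999 CPM) and 0 of GSTF12. In the line GSTF11 was at 3.26, 0.903 and 0.901 CPM and GSTF12 at 4.01, 3.07 and 0.901 CPM. Taken on library totals without TMM scaling, as the filter does, 3 of these 6 values lay under its level of 1.5 CPM. GSTF11 lies wholly within exons of NAC045 on the opposite strand, so its reads cannot be assigned without the strand.

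**Figure D3:**
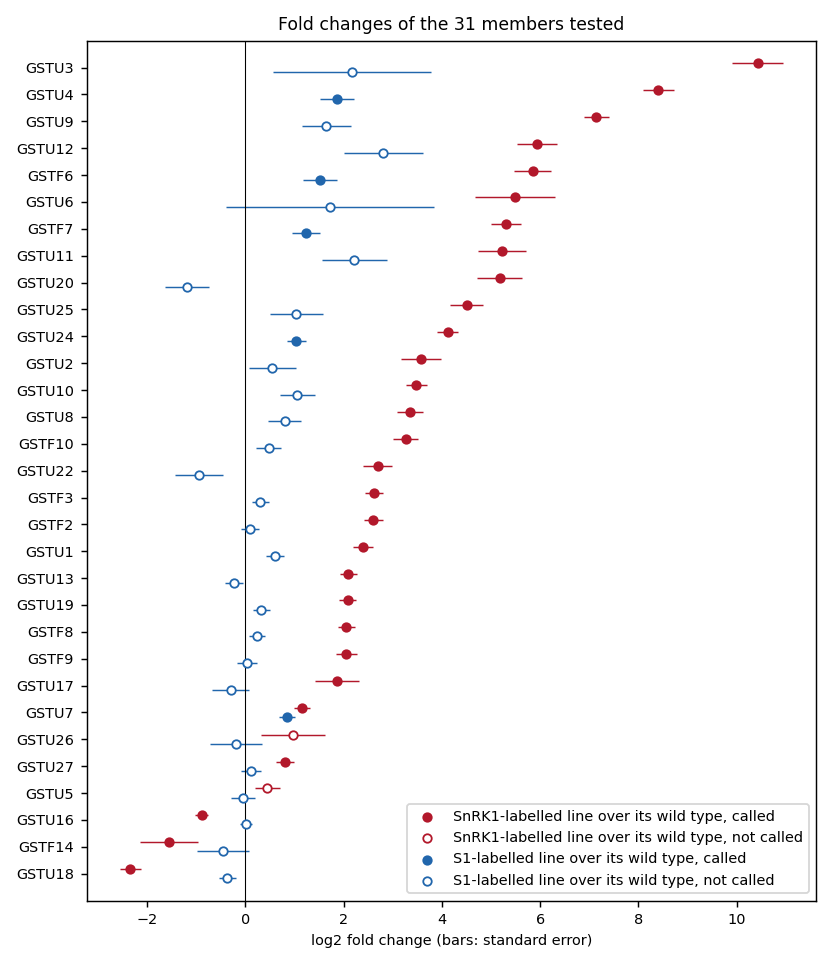
Log2 fold change, with its standard error, of the 31 members tested (down the page, from the highest to the lowest in the SnRK1-labelled line), in the SnRK1-labelled line over its wild type (red) and in the S1-labelled line over its wild type (blue); filled points are called and open points are not. Red points run from -2.35 for GSTU18 to 10.43 for GSTU3, and 5 blue points are filled. The bars come from the F statistic and can understate counting error where a group has few counts.

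The responses of neighbouring members were close in some runs and far apart in others. Of the 38 members, 25 lie in 8 runs of neighbours, with at most 3 protein-coding genes between one member and the next. In the run from GSTU1 to GSTU7 the log2 fold changes spread from 0.45 for GSTU5 to 10.43 for GSTU3. GSTU5 and GSTU6 share 78.0% of residues there and differed by 5.04 in log2 fold change. In the run from GSTU19 to GSTU23, 3 genes were higher and the other 2, GSTU21 and GSTU23, were near 0 counts in every group. GSTU24 and GSTU25 were both higher, whereas their neighbour GSTU26 was not called. GSTU13 was higher, and its neighbour GSTU14, with 79.3% identity, was near 0 counts. GSTU11 and GSTU12 were both higher, at log2 fold changes of 5.22 and 5.93. GSTF9 and GSTF10 were both higher, at log2 fold changes of 2.05 and 3.26. Both pairs with over 90% identity, GSTF6 with GSTF7 and GSTF2 with GSTF3, had close fold changes, 0.55 apart and 0.01 apart on the log2 scale.

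**Figure D4:**
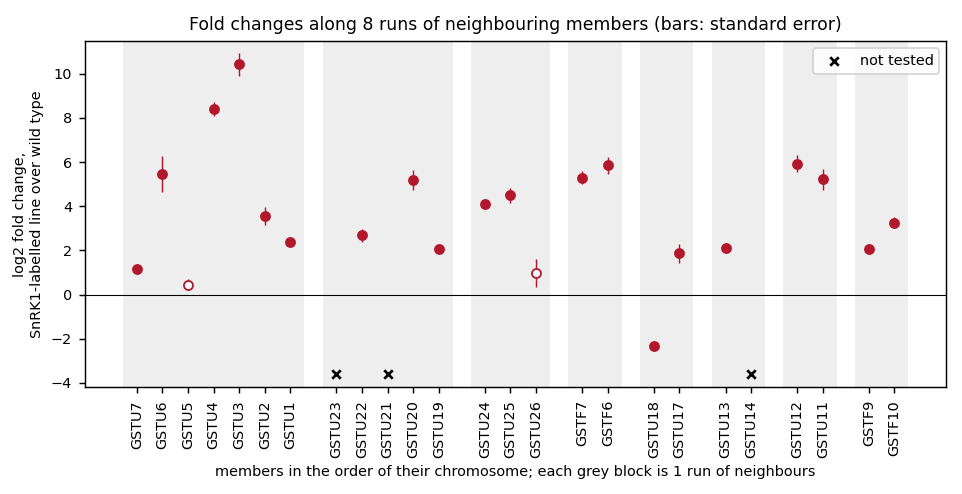
Log2 fold change, SnRK1-labelled line over its wild type, with its standard error, of the 25 members in 8 runs of neighbours, drawn in chromosome order within each grey block; open points were not called and crosses mark members not tested. The run with GSTU1 to GSTU7 spans 0.45 to 10.43, and GSTU17 and GSTU18 lie on opposite sides of 0. The bars come from the F statistic and can understate counting error where a group has few counts.

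Among 45 other genes of the glutathione pathway, 40 were tested in the SnRK1-labelled line, of which 20 were higher and 10 lower (median log2 fold change 0.42). That is 75% called, beside the 68.4% of all genes tested, with 50% higher, beside 35.4%, so the called share is near the background. All 4 ABCC transporters listed were higher. ABCC3 averaged 684 ± 38 CPM in the line and 22.4 ± 2.57 CPM in its wild type (log2 fold change 4.94 ± 0.17). ABCC4 averaged 158 ± 24.3 CPM in the line and 12.4 ± 2.30 CPM in the wild type (3.63 ± 0.19). The smaller increases were those of ABCC1, with 0.64 ± 0.15, and ABCC2, with 0.77 ± 0.19. Of 9 genes of glutathione and conjugate breakdown tested, 6 were higher and 2 lower (88.9% called). PCS1, the phytochelatin synthase that also trims conjugates, averaged 145 ± 17.2 CPM in the line and 18.1 ± 0.752 CPM in the wild type (3.00 ± 0.13). The cytosolic peptidase GGP1, which processes conjugates on the way to camalexin and glucosinolates, averaged 250.03 ± 106 CPM in the line and 24.2 ± 1.87 CPM in the wild type (3.38 ± 0.23). The vacuolar transpeptidase GGT4 had a log2 fold change of 2.04 ± 0.16.

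Genes that make and recycle glutathione were called in both directions, 2 of 4 higher and 1 lower. GR1, the cytosolic and peroxisomal glutathione reductase, averaged 228 ± 53.9 CPM in the SnRK1-labelled line and 67.4 ± 4.05 CPM in its wild type (log2 fold change 1.76 ± 0.16). GR2, the reductase of plastids and mitochondria, was lower, at 92.9 ± 9.90 CPM in the line and 204 ± 11.6 CPM in the wild type (-1.14 ± 0.12). Glutathione synthetase GSH2 was higher (1.42 ± 0.18), while GSH1, the first enzyme of synthesis, was not called (0.17 ± 0.17, edgeR adjusted p = 0.379). Of 11 genes of other transferase classes tested, 4 were higher and 3 lower, or 63.6% called and 36.4% higher, beside 68.4% and 35.4% of all genes. The largest increase among them was that of the lambda class GSTL1, at 23.3 ± 1.13 CPM in the line and 0.776 ± 0.336 CPM in the wild type (5.02 ± 0.27). The dehydroascorbate reductase DHAR2 (1.73 ± 0.20) and the zeta class GSTZ1 (1.09 ± 0.14) were also higher. Of the 3 phi loci outside the members, only GSTF4 was tested, and it was higher (0.79 ± 0.29). Of 7 glutathione peroxidase-like genes tested, 57.1% were called, again beside 68.4% of all genes: 2 were higher (GPX8, 1.45 ± 0.20, and GPX6, 0.81 ± 0.12) and 2 lower, among them the plastid enzyme GPX1 (-1.79 ± 0.21). TGA5, of the class II TGA factors that act on as-1 elements, was higher (0.82 ± 0.17). TGA6 (-0.51 ± 0.14) and SCL14, the GRAS protein that works with these factors on detoxification genes (-0.72 ± 0.11), were lower, and TGA2 was not called (-0.01 ± 0.17).

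In the second comparison, of the S1-labelled line with its wild type, 5 of the 31 members tested were called higher and none lower. The 5 were GSTU4, GSTU7, GSTU24, GSTF6 and GSTF7. Of all genes tested 1.63% were called higher, 0.952% lower and 2.58% either way, and 12 of the 31 members had groups that did not overlap, against 23.6% of all genes. The members' median log2 fold change was 0.47, beside -0.0026 over all genes tested. None of the 5 calls held in every setting tried. Without library 2 of the line 1 member was called, without library 2 of the wild type 2 were, and without library 1 of the line or library 3 of the wild type 3 were; GSTU4 lost its call without library 1 of the wild type (edgeR adjusted p = 0.0521). No member was called lower with edgeR's quasi-likelihood test, DESeq2 or limma-voom, and 2 members, GSTU18 and GSTU20, had a negative fold change with an unadjusted p under 0.05 in the first.

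GSTU4 was at 6.76, 9.73 and 4.14 CPM in the S1-labelled line, against 1.13, 1.90 and 2.80 CPM in its wild type (log2 fold change 1.86 ± 0.35, edgeR adjusted p = 0.0086). GSTF6 was at 62.4, 59.8 and 26.5 CPM in the line, against 19.8, 14 and 17.6 CPM in the wild type (1.52 ± 0.34, edgeR adjusted p = 0.0238). GSTF7 was at 56.4, 50.6 and 25.6 CPM in the line, against 23.8, 15.9 and 16 CPM in the wild type (1.23 ± 0.28, edgeR adjusted p = 0.0269). In GSTF6 and GSTF7 library 3 of the line was the lowest of its group and the nearest to the wild type, and in all 3 genes the groups did not overlap. GSTU24 was at 49.9, 65 and 48.7 CPM in the line, against 23.1, 32.3 and 24.8 CPM in the wild type (1.04 ± 0.20, edgeR adjusted p = 0.00998). GSTU7 was at 93.5, 127 and 113 CPM in the line, against 57.3, 61.3 and 66.4 CPM in the wild type (0.85 ± 0.16, edgeR adjusted p = 0.0082). Both genes were higher in all 3 libraries of the line. Of the 40 pathway genes tested, GSTZ1 (0.64 ± 0.15) and GPX6 (0.49 ± 0.12) were called, both higher.

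The most abundant members were not called in the S1-labelled line. GSTF2 was at 759, 621 and 595 CPM in the line, against 515, 623 and 710.4 CPM in its wild type (0.10 ± 0.18), and GSTU19 was at 532, 532 and 469.9 CPM in the line, against 366, 418 and 445 CPM in the wild type (0.32 ± 0.17). GSTU20 leaned the other way from its direction in the SnRK1-labelled line, at 8.33, 4.86 and 3.22 CPM in the S1-labelled line, against 6.89, 9.27 and 23.4 CPM in its wild type (-1.19 ± 0.45, edgeR adjusted p = 0.193). Library 3 of that wild type was high for GSTU20.

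The difference between the 2 responses was tested directly, as the SnRK1-labelled line over its wild type minus the S1-labelled line over its wild type. It was called positive for 22 and negative for 2 (GSTU16 and GSTU18) of the 31 members, against 27.2% and 27.3% of all genes tested, 54.5% in all. The 5 members with the smallest p were GSTU24, with a difference of 3.08 ± 0.29 on the log2 scale, GSTU4 (6.55 ± 0.63), GSTF7 (4.06 ± 0.40), GSTU20 (6.36 ± 0.65) and GSTU13 (2.33 ± 0.25), with edgeR adjusted p of at most 1.38e-06. GSTU13 was at 31.3, 25 and 24.2 CPM in the S1-labelled line and 23.2, 32.6 and 40.4 CPM in its wild type, so it was higher in 1 line and near its wild type in the other. GSTU7, called higher in both lines, had a difference of 0.30 ± 0.23, which was not called (edgeR adjusted p = 0.27). GSTU3, GSTU6 and GSTU12, which had at most 2 counts in all 3 libraries of the wild type with 1 d of Est, were not called either. The Est treatment lasted 6 d for one line and 1 d for the other, and this cannot be told apart from the genotypes here.

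The last comparison sets the 2 wild types side by side, 6 d of Est over 1 d. Of the 31 members tested, 1 was higher after 6 d (GSTU10) and 8 were lower (GSTU1, GSTU7, GSTU17, GSTU18, GSTU19, GSTU20, GSTU24 and GSTF8). Of all genes tested 6.17% were called higher, 5.94% lower and 12.1% either way, and 13 of the 31 members had groups that did not overlap, against 34% of all genes. GSTU7 was at 25.7, 37.4 and 32.6 CPM in the wild type with 6 d, against 57.3, 61.3 and 66.4 CPM in that with 1 d (log2 fold change -0.96 ± 0.17, edgeR adjusted p = 0.00189). GSTU1 was at 7.21, 9.38 and 6.35 CPM with 6 d, against 13.2, 17.4 and 21 CPM with 1 d (-1.13 ± 0.21, edgeR adjusted p = 0.00312). Every library with 6 d lay below every library with 1 d in both genes. GSTF8 was at 100.4, 96.1 and 80.8 CPM with 6 d, against 125, 137 and 191 CPM with 1 d (-0.70 ± 0.17). GSTU20 was at 3.73, 1.65 and 2.60 CPM with 6 d, against 6.89, 9.27 and 23.4 CPM with 1 d (-2.22 ± 0.54), but without library 3 of the wild type with 1 d the value was -1.51 and no longer called (edgeR adjusted p = 0.0848). GSTU24 was at 13, 18.9 and 9.52 CPM with 6 d, against 23.1, 32.3 and 24.8 CPM with 1 d (-0.90 ± 0.22). These 3 genes were also lower in every library with 6 d, at an edgeR adjusted p of at most 0.0138. GSTU10 averaged 3.37 ± 0.168 CPM with 6 d and 1.35 ± 0.699 CPM with 1 d (1.38 ± 0.35).

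GSTU1, GSTU7, GSTU17, GSTU19, GSTU20, GSTU24 and GSTF8 were thus lower in the wild type with 6 d and higher in the SnRK1-labelled line, which is measured against that same wild type. These 2 comparisons share those 3 libraries. Against the range of the other wild type, GSTU7 in the SnRK1-labelled line (85.8, 66.1 and 59.8 CPM) overlapped the 57.3 to 66.4 CPM of the wild type with 1 d, and GSTU17 overlapped it too. GSTU1, GSTU19, GSTU20, GSTU24 and GSTF8 were above both wild types in all 3 libraries of the line. Days on Est and everything else that differed between the experiments cannot be told apart. Leaving out any 1 of the 6 libraries left 3 to 6 members lower and 0 or 1 higher, and only GSTU1 and GSTU7 kept their calls in every setting in which they were tested.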

How the data were processed

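Per the labels' protocols, the NEBNext mRNA kit was used on 5 µg of RNA per library. The tools named in the submitters' processing notes are Bowtie 0.12.8, SAMtools 0.1.18 and FastQC, with TAIR10 as the genome. The sources used here do not give the counter, its use of strand or its treatment of reads with several hits. Each deposited file holds the raw counts of 1 library, per gene, and 0 per-library columns were left unmatched.

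Members and gene lists were chosen with earlier results of these data known. All 12 libraries entered 1 quasi-likelihood fit (edgeR 4.0.16, R 4.3.3) on group, with TMM scaling and filterByExpr at a minimum count of 10. This left 18388 genes, with 13.2% as the common biological coefficient of variation. P-values were adjusted over those genes by Benjamini and Hochberg, with calls under 0.05. Standard errors are the log2 fold change over the square root of the F statistic. They can understate counting error where a group has few counts. Intervals of count ratios are exact and cover counting error only. The fit was also run on simulated counts in which few genes were changed. That run does not show how the fit behaves where most genes differ, as in the SnRK1-labelled line.

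Values in every library are given by rule for the 8 highest and 8 lowest members called in the SnRK1-labelled line, all called in the S1-labelled line, the 5 with the smallest p in each other contrast and the 4 most abundant per kb. GSTU5 and GSTU26 were added after their values were seen. Of each pathway list, the 3 called genes with the smallest p were taken by rule. Other genes named there, ABCC2, GSH1 and TGA2, and the overlapping genes were added later. Windows were set for the 2 highest and 2 lowest members, and GSTU16 took the place of GSTU18. Protein identity was computed from TAIR10.1 coding sequences aligned in pairs. Because the notes name TAIR10 and the annotation is TAIR10.1, gene models may differ from those counted.

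Alternatives were library totals alone, RLE size factors (relative log expression), TMM on the 5000 most expressed genes, DESeq2 1.42.0, limma-voom (limma 3.58.1), no count filter, a filter of 5 CPM in 3 libraries, a replicate block, a fit of the compared groups alone, overlapping or identically counted genes left out, and each library left out in turn. Figures used matplotlib 3.10.9.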

Additional observations from a re-analysis of the deposited data

Results flagged for a closer look

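The response of 24 members differed between the lines by the direct test of the difference (SnRK1-labelled line over its wild type minus S1-labelled line over its wild type, log2 scale, edgeR's quasi-likelihood test with Benjamini-Hochberg adjustment). Of these, 22 were positive and 2 negative, in a test that called 54.5% of all genes. In the phi class the differences were 2.50 for GSTF2, 2.31 for GSTF3, 4.33 for GSTF6, 4.06 for GSTF7, 1.82 for GSTF8, 2.02 for GSTF9 and 2.79 for GSTF10. These 7 were all positive and called in every setting in which they were tested. GSTF2, GSTF8 and GSTF10 were not tested in the setting that left out overlapping genes.

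In the tau run on chromosome 2 the differences were 1.78 for GSTU1, 3.03 for GSTU2 and 6.55 for GSTU4. Elsewhere in the tau class they were 2.55 for GSTU8, 5.50 for GSTU9, 2.42 for GSTU10, 3.00 for GSTU11 and 2.33 for GSTU13. GSTU17 had 2.16 and its neighbour GSTU18 had -1.97. The abundant GSTU19 had 1.76, and its neighbours GSTU20 and GSTU22 had 6.36 and 3.63. GSTU24 had 3.08, GSTU25 had 3.47 and GSTU27 had 0.70, while GSTU16 had -0.90. The call of GSTU11 was lost without library 3 of the wild type with 1 d of Est (edgeR adjusted p = 0.117), without library 1 of that group (0.0502) or without library 2 of the other wild type (0.0628). That of GSTU16 was lost by library totals (difference -0.43, edgeR adjusted p = 0.0519). GSTU27 lost its call in 11 settings, at adjusted p up to 0.127 (edgeR, without library 1 of the wild type with 6 d, difference 0.54), among them DESeq2 (adjusted p = 0.0723). Without library 3 of the wild type with 1 d the differences were 4.48 for GSTU9, 5.64 for GSTU20, 2.93 for GSTU22 and 2.75 for GSTU25. GSTU11 was at 3.88 without library 1 of the S1-labelled line and 3.67 without library 1 of the wild type with 6 d, and GSTU25 was at 4.07 without library 2 of that wild type.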

How the results depend on the processing

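Of the 29 member calls in the SnRK1-labelled line, 28 held in every setting in which the gene was tested, and GSTF14 was lost in 5 settings. The same was true of 0 of 5 calls in the S1-labelled line, 2 of 9 between the wild types and 21 of 24 in the difference. The fold changes of GSTU5 and GSTU26, which were not called with all libraries, ran from -0.10 to 0.68 and from -0.45 to 1.78 as libraries were left out, and in the SnRK1-labelled line GSTU5 gained a call in 4 settings and GSTU26 in 2. Members higher in the S1-labelled line numbered 8 with no count filter and 1 to 6 as libraries were left out. Between the wild types, the count of members higher was 0 with limma-voom or without overlapping genes, and 0 to 1 as libraries were left out. The count of members lower was 4 without overlapping genes and 3 to 6 as libraries were left out. The difference was negative for 1 member by library totals or without overlapping genes. Pathway genes lower in the SnRK1-labelled line numbered 6 by library totals and 5 without overlapping genes, where fewer genes were tested. By library totals the summed CPM averaged 3219 for tau and 7679 for phi genes in the SnRK1-labelled line, and 425 for tau and 686 for phi genes in its wild type. With TMM on the 5000 most expressed genes the phi sums were 6977 in the line and 732 in the wild type.

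Over all genes, the share of SnRK1 calls that were higher was 51.8%, but 78.1% by library totals and 68.7% with TMM on the 5000 most expressed genes, where the median log2 fold change was 0.64 and 0.40. It was 63.1% and 84.5% by library totals in the S1-labelled line, 51.0%, 33.5% by totals and 39.3% on the 5000 genes between the wild types, and 49.9%, 74.7% and 68.4% in the same settings for the difference. Genes called in the S1-labelled line numbered 474, but 1029 when only its 2 groups were fitted. Same-numbered libraries of different groups deviated together at r of -0.09 to 0.20, over 0.1 in 7 of 18 pairs, against 4 of 36 pairs with different numbers. The numbers were not taken as pairing because not every pair was over 0.1, and 6 of 12 libraries correlated best with their own number. That rule is not a test of pairing. Those 6 included every library numbered 1, at a mean r of 0.10 to 0.16 with their own number. A replicate block gave 26 higher and 3 lower members in the SnRK1-labelled line, 6 and 0 in the S1-labelled line, 1 and 8 between the wild types, 22 and 2 in the difference, and 20 and 10 pathway genes. The cause of these shifts was not tested. Low counts limit GSTF14, GSTU17, GSTU26 and the 7 untested members. They also limit the size of the SnRK1 fold changes of GSTU3, GSTU6, GSTU12, GSTU11, GSTU4 and GSTU9. The wild type with 6 d held 1, 4, 5, 9, 11 and 12 counts of these genes, in that order.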
